A study of Homo sapiens with 6 samples.

Results

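The human ubiquitin-specific proteases (USP) and ovarian tumor (OTU) proteases are the largest families of deubiquitinating enzymes, which take ubiquitin off proteins or trim ubiquitin chains. Ubiquitin marks proteins for the proteasome, sorts receptors at endosomes and builds signaling platforms, and each of these marks is read, kept or erased depending on the enzymes present. Most USP and OTU proteases act through a catalytic cysteine, and several work only with a partner protein, such as the WD repeat proteins *WDR48* and *WDR20*. A few family members, *USP39* among them, lack protease activity.

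Genes were taken by symbol. A probe set entered when its only gene symbol was USP followed by a digit (without the USP17L group), OTUD followed by a digit, or *CYLD*, *OTUB1*, *OTUB2*, *OTULIN*, *YOD1* or *TNFAIP3*, and the probe set with the highest mean over all 6 arrays was kept for each gene. This gave 66 of 18404 genes with a single symbol. The symbol rule also took in 3 genes that belong to neither family. These are *USP6NL*, a GTPase-activating protein for RAB proteins, the pseudogene *USP32P1* and the non-coding transcript *USP27X-DT*. Of the remaining 63 genes 1 lies on the Y chromosome and is counted here without its values, and *USP10* and *USP32* were not analysed here.

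Large physaliferous cells, which are filled with vacuoles, were compared with small non-vacuolated cells of MUG-Chor1, an established cell line from a sacrococcygeal chordoma that grew untreated in serum-containing medium. Each array held amplified cDNA of 1 pool of 20 cells picked by micromanipulation, with 3 pools of large cells (pools 2, 3 and 4) and 3 pools of small cells (pools 5, 6 and 7). All pools come from 1 cell line. Whether they were picked from different cultures is not stated, and p-values cover pool-to-pool spread only, which may be technical. The values are log2 expression after robust multi-array averaging, in which arrays are brought to a common scale, so levels are relative to each array, and in pools a lower share of cells with a transcript and less of it per cell cannot be told apart.

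The 8 chordoma and notochord markers, among them *TBXT* and *KRT19*, averaged 10.3 to 10.4 in the large pools and 10.3 in each small pool on the log2 scale, and all had a mean above log2(100), the expression floor used here. Of 5 leukocyte markers 2 had a mean above it, and the list averaged 6.11 to 6.44 in large and 6.12 to 6.41 in small pools. The list's defining gene *PTPRC* was below the floor in all pools, and *CD68*, also found in lysosomes of other cells, was the only one of the list at an unadjusted p under 0.05 (difference 0.60, limma). All 8 fibroblast markers were lower in large cells, none at an unadjusted p under 0.05, and their pool means did not overlap, with 6.79 to 6.89 in large and 7.02 to 7.31 in small pools. The part of this in the results was not tested. The medians of all probe sets were 6.64 to 6.68 in large and 6.73 to 6.76 in small pools, and 33.6% of all genes had a higher mean in large cells. Of 12 proliferation genes the mean was 6.99, 6.88 and 8.64 in large pools 2, 3 and 4, against 8.13, 8.29 and 7.62 in small pools 5, 6 and 7. Large pool 4 lay above the small pools and the other large pools below them, and the part of this difference in the results was not tested.

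*CYLD*, *OTUD6B*, *USP12* and *USP28* were higher in all 3 large pools than in any of the small pools, and *USP8* and *USP46* were lower in all 3. None of the 66 genes passed limma at an adjusted p under 0.05, nor did any gene on the array (0% of 18404). At an unadjusted p under 0.05, 7 of the 66 genes (10.6%) were higher in large cells, where 4.33% of all genes were, and 5 (7.58%) were lower, where 10.5% of all genes were. All large pools lay above all small pools for 8 genes (12.1%, against 5.48% of all genes) and below them for 11 (16.7%, against 21.6%). With 3 pools a side, the smallest two-sided p of an exact permutation test is 0.1. The counts at an unadjusted p under 0.05 changed with the scaling. Centring each array on its median gave 12 higher and 2 lower, where 6.56% and 3.9% of all genes were. Quantile normalization once more gave 7 and 2 (4.53% and 5.9% of all genes), and removing each array's trend with signal level gave 9 and 1 (6.14% and 2.51%). The lower calls thus fell in number over the whole array too. Without large pool 3 or small pool 5, 2 of the 66 genes were lower, and without small pool 6 there were 3. Over all 18404 genes the lower calls were 1239, 1021 and 1228 in these fits, against 1934 with all pools.

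**Figure D1:**
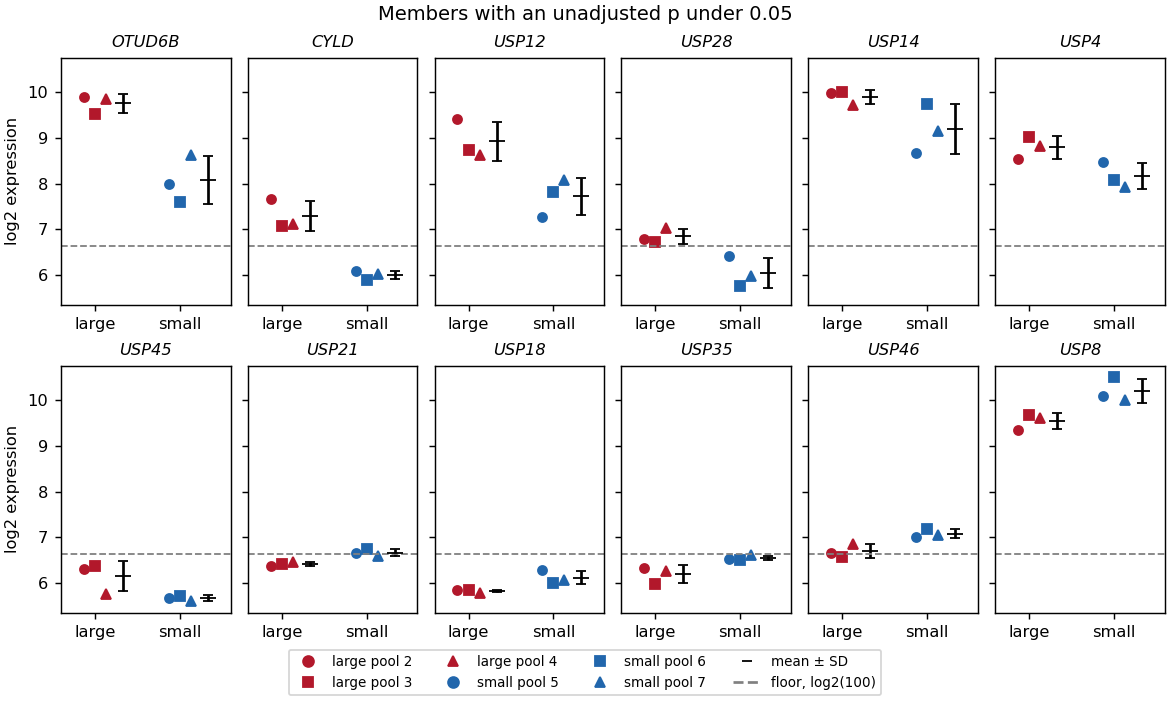
Log2 expression (vertical axis) in each pool of 20 large or 20 small MUG-Chor1 cells for the 12 genes with an unadjusted p under 0.05 from limma, ordered by their difference. Points are pools, horizontal marks and bars are means and SDs of 3 pools, and the expression floor of log2(100) is dashed. Except for *USP14*, the large and small pools of each gene do not overlap.

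*OTUD6B*, an OTU protease linked to protein synthesis, had the largest difference of the 66 genes. Its log2 expression was 9.89, 9.52 and 9.85 in large pools 2, 3 and 4, against 8.00, 7.60 and 8.63 in small pools 5, 6 and 7. All large pools lay well above the highest small pool, and the gene was above the expression floor in all 6 pools. The log2 difference, large minus small, was 1.68 (standard error 0.27, 95% confidence interval 1.01 to 2.34, limma adjusted p = 0.32). Over 16 other settings it ran from 1.44 to 1.95, and the unadjusted p stayed under 0.05 in each. Its relative *OTUD6A* was below the floor in all pools and differed by -0.06.

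*CYLD*, a tumor suppressor that removes signaling chains of ubiquitin and dampens NF-kappaB signaling, had the lowest p. The values were 7.66, 7.07 and 7.12 in the large pools, against 6.08, 5.90 and 6.02 in the small pools. *CYLD* was above the floor in all 3 large pools and in none of the small pools, so that the difference of 1.28 (standard error 0.18, 95% confidence interval 0.85 to 1.72, limma adjusted p = 0.32) is against signal under the floor. It ran from 1.09 to 1.44 over 16 other settings, with an unadjusted p under 0.05 in each. In the settings that filter on the floor *CYLD* was kept through its large pools alone, so those fits are no separate support.

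*USP28*, a nuclear protease that stabilizes *MYC*, was also above the floor in large pools alone. It had 6.79, 6.72 and 7.03 in the large pools, against 6.41, 5.77 and 5.99 in the small pools. The groups did not overlap, and the difference was 0.79 (standard error 0.19, 95% confidence interval 0.34 to 1.25, limma adjusted p = 0.32). Over 16 other settings it ran from 0.65 to 0.97, and the unadjusted p was 0.095 with the filter on floor and interquartile range and under 0.05 in the other 15. *USP28* too passed the filters on the floor through its large pools alone, so those fits are no separate support.

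*USP12* belongs with *USP46* to a pair of close relatives that both need *WDR48* and *WDR20* for full activity, and the pair went in opposite directions. *USP12* had 9.40, 8.74 and 8.63 in the large pools, against 7.27, 7.82 and 8.07 in the small pools, a difference of 1.20 (standard error 0.29, 95% confidence interval 0.51 to 1.90, limma adjusted p = 0.32). *USP46* had 6.66, 6.56 and 6.85 in the large pools, against 7.01, 7.19 and 7.04 in the small pools, a difference of -0.39 (standard error 0.12, 95% confidence interval -0.67 to -0.10, limma adjusted p = 0.32). Its signal was near the floor of 6.64, with 2 large pools and 3 small pools above it. The groups did not overlap for either gene, and without small pool 6 *USP46* had an unadjusted p of 0.054 from limma. A second, dimmer probe set of *USP12* gave 4.92, 6.39 and 8.43 in the large pools, against 4.26, 4.39 and 6.90 in the small pools, so that its groups overlapped (difference 1.40, limma unadjusted p = 0.27 in the fit of all probe sets). Of the shared partners, *WDR20* had 7.16, 6.96 and 6.85 in the large pools, against 6.40, 6.56 and 6.65 in the small pools (difference 0.45, limma unadjusted p = 0.011), whereas *WDR48* differed by -0.08 with overlapping groups. The difference of *USP12* ran from 0.96 to 1.38 over 16 other settings, and with the mean of both its probe sets the unadjusted p was 0.052.

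*USP8*, which trims ubiquitin from receptors at early endosomes together with the STAM and HGS proteins, had the lowest p of the genes with lower values. It had 9.35, 9.66 and 9.61 in the large pools, against 10.10, 10.50 and 9.99 in the small pools. All pools were far above the floor, and the highest large pool was below the lowest small pool. The difference was -0.65 (standard error 0.17, 95% confidence interval -1.07 to -0.24, limma adjusted p = 0.32), and it ran from -0.76 to -0.50 over 15 other settings with an unadjusted p under 0.05 in each. Its partners differed less, with *STAM* at 0.36, *STAM2* at -0.20 and *HGS* at -0.23, and none of the 3 had an unadjusted p under 0.05.

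The promoters of *CYLD*, *USP28* and *USP12*, 3 of the 4 genes with the lowest p among those with higher values, and of *USP8*, with the lowest p among those with lower values, are printed to set the sequence at their start sites beside the values. Each runs 5′ to 3′ from 250 bases before to 50 bases after the start site in RefSeq (GRCh38.p14). *CYLD* lies at chr16:50741906-50742205 on the plus strand (the first listed of 3 start sites), *USP28* at chr11:113875523-113875822 on the minus strand, *USP12* at chr13:27171762-27172061 on the minus strand and *USP8* at chr15:50424155-50424454 on the plus strand. Capitals mark, on either strand, the GC box GGGCGG, the CCAAT box CCAAT and the core of the cAMP response element TGACGT.
CYLD: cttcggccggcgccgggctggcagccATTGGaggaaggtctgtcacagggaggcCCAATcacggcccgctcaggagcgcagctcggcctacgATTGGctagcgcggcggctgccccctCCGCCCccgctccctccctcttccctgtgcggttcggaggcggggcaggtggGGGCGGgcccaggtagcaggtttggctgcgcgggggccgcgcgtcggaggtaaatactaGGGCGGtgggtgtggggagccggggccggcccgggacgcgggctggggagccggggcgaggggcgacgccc
USP28: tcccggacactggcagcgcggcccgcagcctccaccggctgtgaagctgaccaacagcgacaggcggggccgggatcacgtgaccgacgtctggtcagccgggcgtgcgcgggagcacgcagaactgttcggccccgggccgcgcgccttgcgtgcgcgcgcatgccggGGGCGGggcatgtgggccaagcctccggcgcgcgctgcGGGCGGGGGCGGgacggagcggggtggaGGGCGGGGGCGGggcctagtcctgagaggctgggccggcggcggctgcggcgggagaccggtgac
USP12: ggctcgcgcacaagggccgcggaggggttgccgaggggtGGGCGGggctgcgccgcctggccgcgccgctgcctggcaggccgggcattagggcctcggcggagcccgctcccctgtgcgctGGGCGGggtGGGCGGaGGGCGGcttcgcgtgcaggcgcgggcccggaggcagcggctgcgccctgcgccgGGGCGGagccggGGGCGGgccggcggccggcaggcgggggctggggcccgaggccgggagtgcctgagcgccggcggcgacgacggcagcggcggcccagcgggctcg
USP8: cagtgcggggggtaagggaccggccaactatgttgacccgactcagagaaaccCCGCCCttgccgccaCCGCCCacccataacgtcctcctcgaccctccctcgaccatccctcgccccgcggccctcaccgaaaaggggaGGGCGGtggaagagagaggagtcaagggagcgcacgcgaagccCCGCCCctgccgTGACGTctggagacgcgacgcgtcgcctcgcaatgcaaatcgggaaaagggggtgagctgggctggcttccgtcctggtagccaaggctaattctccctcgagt
Matches to the GC box were 3 in *CYLD*, 5 in *USP28*, 6 in *USP12* and 4 in *USP8*. The CCAAT box matched 3 times in *CYLD* only and the cAMP response element core once in *USP8* only among these 4 promoters, with no base shared by 2 motifs. RefSeq promoters were matched for 49 of the 62 enzymes. The GC box was in 39 of them (79.6%), against 44.6% of the promoters of 27305 genes and 60.0% of those of 14212 genes tested on the array. The CCAAT box was in 32.7% (35.7% of the 27305 and 36.3% of the 14212). The cAMP response element core was in 12.2% (8.3% and 9.8%). A match describes the letters and shows no binding.

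*USP4*, *USP14* and *USP45* were the other genes with higher values at an unadjusted p under 0.05. *USP4*, which acts on the TGF-beta receptor, had 8.53, 9.02 and 8.82 in the large pools, against 8.48, 8.07 and 7.94 in the small pools. The lowest large pool and the highest small pool were close, and the difference was 0.63 (limma unadjusted p = 0.017). *USP14*, a protease of the proteasome, had 9.97, 10.00 and 9.71 in the large pools, against 8.66, 9.75 and 9.16 in the small pools. Small pool 6 reached the large pools, and the difference was 0.70 (limma unadjusted p = 0.042), and 0.44 without small pool 5. The unadjusted p of *USP14* was 0.05 or above without any 1 pool other than small pool 6. That of *USP4* was 0.055 without large pool 3, 0.050 without small pool 6 and 0.054 without small pool 7. Over 16 other settings the unadjusted p of *USP4* from limma reached 0.17, in a fit with all pools, and was under 0.05 in 12. *USP45*, a DNA repair protease, was below the floor in all pools and differed by 0.48, with an unadjusted p of 0.05 or above without any 1 pool other than large pool 4.

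*USP35*, *USP18* and *USP21* were the other genes with lower values. Each of them was near or below the floor. *USP18*, which removes the ubiquitin-like protein ISG15, had 5.84, 5.84 and 5.79 in the large pools, against 6.28, 6.01 and 6.06 in the small pools, a difference of -0.29 (limma unadjusted p = 0.033). *USP35* and *USP21* differed by -0.35 and -0.25. Each of the 3 had an unadjusted p of 0.05 or above without 1 of several pools. With arrays centred, quantile normalized once more or freed of the trend with signal level, none of these 3 genes kept an unadjusted p under 0.05. *CYLD*, *OTUD6B*, *USP12*, *USP28*, *USP4*, *USP45* and *USP8* did in all 3 scalings and *USP46* in 2 of them. *USP14* kept it after centring only, with 0.053 after quantile normalization and 0.077 with the trend removed (limma).

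**Figure D2:**
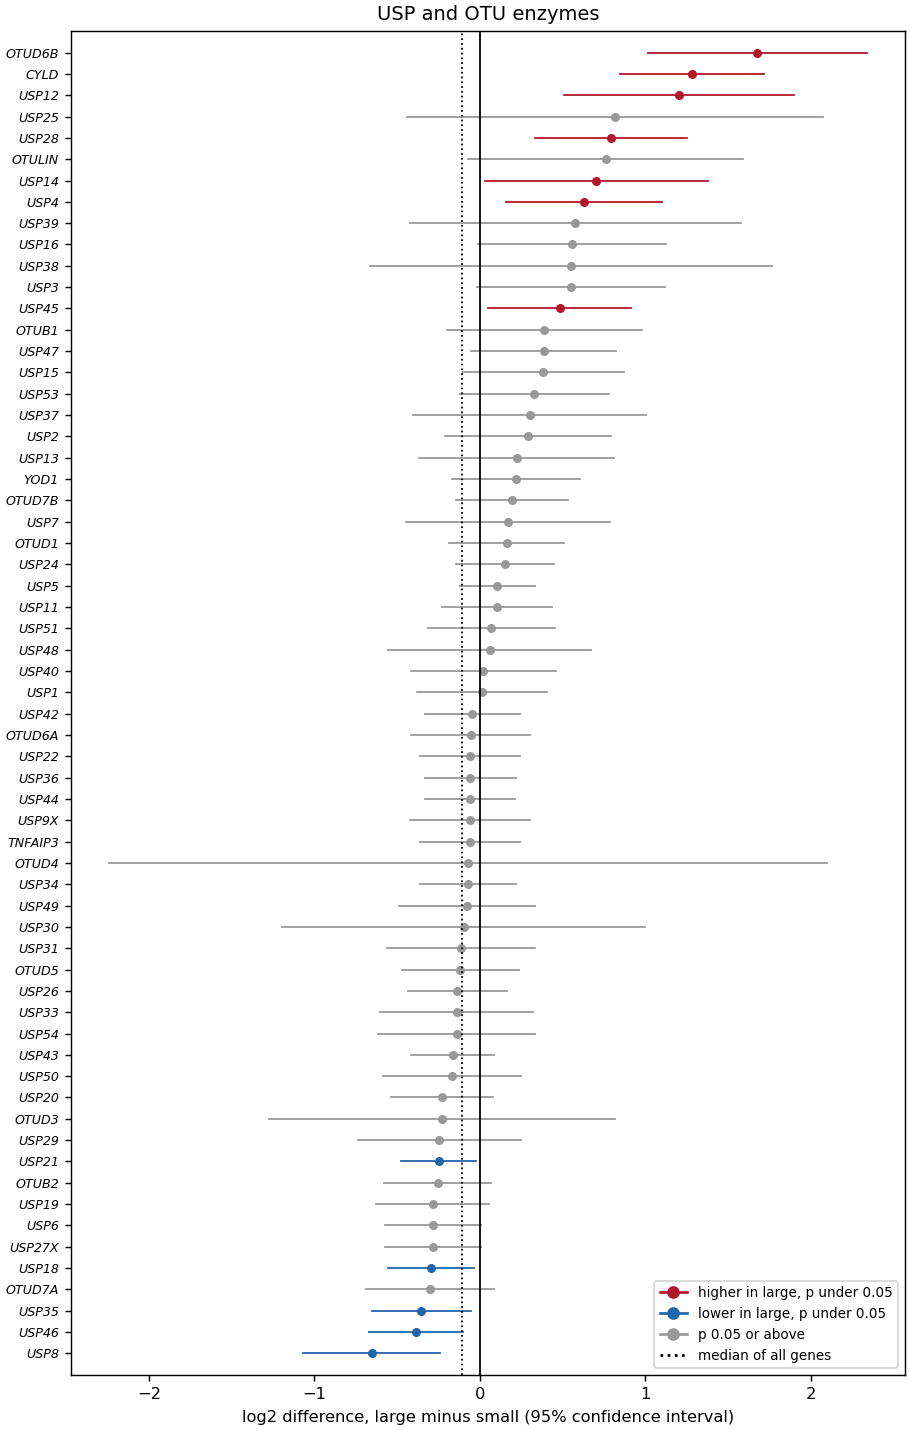
Log2 difference of large minus small cells (horizontal axis) for 62 USP and OTU enzymes, 3 pools a side. Lines are 95% confidence intervals of the limma fit, and colored points have an unadjusted p under 0.05, 7 of them higher and 5 lower. The dotted line is the median of all genes, -0.11, and the widest intervals belong to *OTUD4*, *USP25* and *USP38*.

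Of the 66 genes 31 (47%) were higher and 35 lower in large cells, and their median difference was -0.06, beside -0.11 for all genes. The median was 0.00 after quantile normalization once more, 0.03 after centring and 0.08 with the trend with signal level removed, which itself moved the median of all genes from -0.11 to 0.00. Relative to all genes the 66 genes lay 0.05 higher as deposited, 0.07 higher after quantile normalization, 0.05 after centring and 0.08 without the trend. Without the 3 genes of neither family the median was -0.05 over 63 genes. The USP group with *CYLD* had 25 of 50 genes higher, and the OTU group had 6 of 13.

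Direction went with signal level. Of the 36 enzymes with a mean over all arrays above the floor 21 (58.3%) were higher in large cells, where 38.9% of all such genes were. At an unadjusted p under 0.05, 4 of these 36 were higher and 2 lower (11.1% and 5.56%), beside 5.98% and 9.98% of all such genes. Of the 27 enzymes below it 10 (37%) were higher, where 26.2% of all such genes were, and by unadjusted p 3 were higher against 3 lower (11.1% each), beside 2.07% and 11.2%. In the brightest of 5 equal classes of genes by level 13 of 19 members (68.4%) were higher, near the 62% of all 3681 genes of this class, with a median of 0.17 beside 0.08. In the dimmest class 2 of 10 were higher, where 29.9% of all genes were, with a median of -0.14 beside -0.09. Of 62 enzymes 29 were above the floor in all 6 pools and 15 in none, and only *CYLD* and *USP28* were above it in all large and no small pools.

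**Figure D3:**
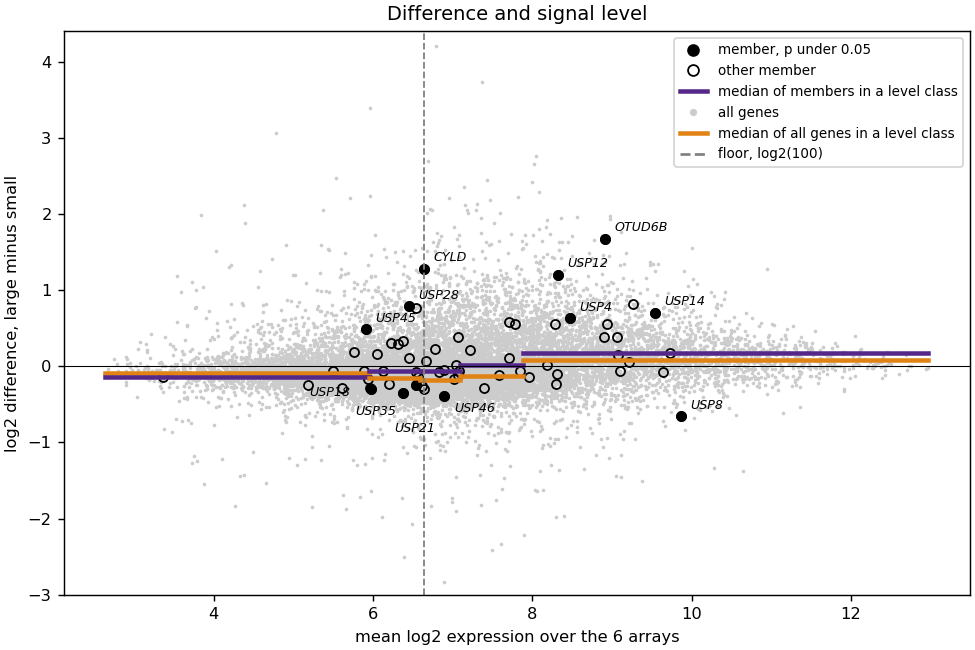
Log2 difference of large minus small cells (vertical axis) against mean log2 expression over the 6 arrays (horizontal axis), with 62 USP and OTU enzymes as circles, filled at an unadjusted p under 0.05, and all genes as grey points. Horizontal bars are medians in 5 equal classes of genes by level, which for the 66 genes run from -0.14 in the dimmest to 0.17 in the brightest class.

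The enzymes were also grouped by role. These groups are small, the same enzyme may stand in several of them, and their counts stand beside 33.6% of all genes higher and 66.4% lower. Of 7 enzymes of endosomes, receptors and membrane traffic 6 were lower (median -0.23). The seventh was *USP12*, higher by 1.20 (limma unadjusted p = 0.0054). At an unadjusted p under 0.05, 2 (28.6%) were lower, where 10.5% of all genes were. The count stayed at 2 after centring and after quantile normalization once more. Once each array's trend was taken out *USP8* alone was left (14.3%, against 2.51% of all genes), and *USP46* had 0.0885 (limma). After centring 5 were lower, since *USP9X* turned to 0.02. Next to *USP8* and *USP46* the lower enzymes as deposited were *USP6* with -0.28, *USP20* with -0.23, *USP33* with -0.14 and *USP9X* with -0.06. None of these 4 had an unadjusted p under 0.05. *USP6* and *USP20* were below the floor in all pools.

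Of 6 enzymes acting at the proteasome, on free chains or in degradation from the endoplasmic reticulum 5 were higher (median 0.22), with *USP14* alone at an unadjusted p under 0.05. *USP5*, which recycles free ubiquitin chains, was below the floor in all pools and differed by 0.11. *USP13*, above the floor in 2 large pools and 1 small pool, differed by 0.22, and *YOD1*, a partner of *VCP*, by 0.22. *USP25* differed by 0.82, with small pool 6 alone, at 7.60, far below the other pools. *USP19*, anchored in the endoplasmic reticulum, had 7.45, 6.99 and 7.30 in the large pools, against 7.52, 7.60 and 7.47 in the small pools, a difference of -0.28 (limma unadjusted p = 0.088) with groups that did not overlap. Of 6 enzymes of TGF-beta and WNT signaling 4 were higher (median 0.24). The relatives *USP4*, *USP15* and *USP11* differed by 0.63, 0.38 and 0.10, and *USP15* had an unadjusted p of 0.10 from limma.

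Of 11 enzymes of NF-kappaB and immune signaling 5 were higher and 6 lower (median -0.06). After centring 6 were higher and with the trend removed 7, where 45.6% and 49.8% of all genes were. *OTULIN*, which cuts linear ubiquitin chains, had 6.77, 6.95 and 7.04 in the large pools, against 6.96, 5.82 and 5.70 in the small pools. Small pool 5 was as high as the large pools, and the difference of 0.76 had an unadjusted p of 0.067 from limma as deposited and under 0.05 in the 3 other scalings. *TNFAIP3*, the A20 protein that restrains NF-kappaB, was below the floor in all pools and differed by -0.06 (95% confidence interval -0.36 to 0.24). *OTUD7A* and *OTUD7B*, which share a preference for one chain type, differed by -0.30 and 0.19.

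Of 13 enzymes of DNA repair and the cell cycle 9 were higher (median 0.10). *USP47* had 9.24, 9.29 and 9.22 in the large pools, against 8.50, 9.17 and 8.93 in the small pools, so that the groups did not overlap (difference 0.39, limma unadjusted p = 0.074). *USP1*, the protease of *PCNA* and the Fanconi proteins, differed by only 0.01 (95% confidence interval -0.38 to 0.40). *OTUB1* and *OTUB2* differed by 0.39 and -0.25. Of 10 enzymes acting on histones and transcription 4 were higher (median -0.06). This changed with the scaling, to 6 higher after quantile normalization once more, 8 after centring and 7 with the trend removed. Of all genes 37.7%, 45.6% and 49.8% were higher in these scalings. *USP16* and *USP3*, which remove ubiquitin from histone H2A, differed by 0.56 and 0.55, with unadjusted p of 0.054 and 0.055 from limma. *USP22*, *USP27X* and *USP51*, which can each fill the same place in the histone deubiquitinating module, differed by -0.06, -0.29 and 0.07. *USP7*, a protease of *MDM2*, differed by 0.17 with overlapping groups.

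The smallest role groups had 3 measured enzymes each. Of those of splicing and translation *OTUD6B* and *USP39* were higher and *OTUD6A* lower (median 0.58), and of those of mitochondria and autophagy *USP13* was higher and *USP30* and *USP33* lower (median -0.10). The 9 enzymes without a listed role differed by -0.23 for *OTUD3* to 0.55 for *USP38*, and none had an unadjusted p under 0.05. In all, 50 of the 62 enzymes had an unadjusted p of 0.05 or above, and 44 of these 50 differed by less than 0.5 in either direction. Of the 62 enzymes and the 3 other genes 14 changed direction in at least 1 of the 3 other scalings, among them *OTUD6A*, *OTUD4*, *TNFAIP3*, *USP22*, *USP9X* and *USP1*, and all 14 had an unadjusted p of 0.05 or above.

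**Figure D4:**
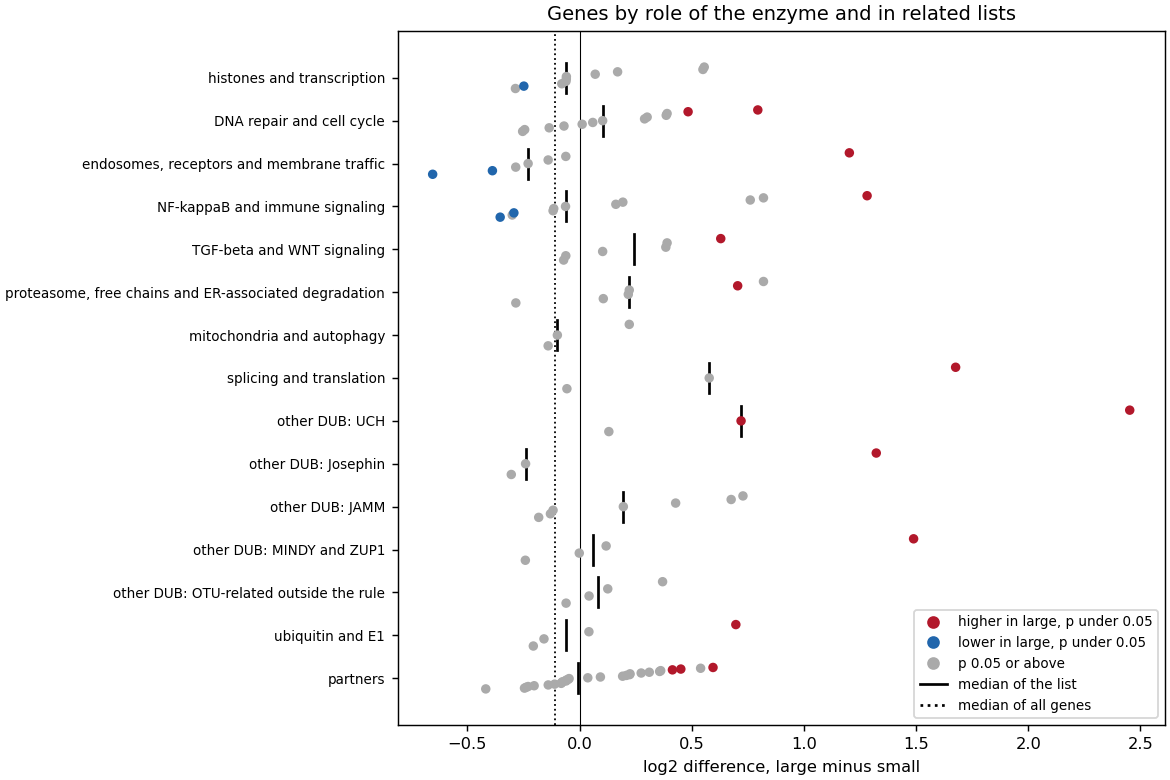
Log2 difference of large minus small cells (horizontal axis) for enzymes by role and for genes of related lists (vertical axis), 1 point per gene. Black bars are list medians and the dotted line is the median of all genes, -0.11; the 8 genes of the other deubiquitinase, ubiquitin and partner lists at an unadjusted p under 0.05 all lie to the right of 0.

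An SD above 0.5 was found for 5 of the 66 genes (7.58%) among large pools and for 10 (15.2%) among small pools, beside 8.8% and 11.7% of all genes. The median SD was 0.20 in large and 0.15 in small pools, beside 0.17 and 0.15 over all genes. *USP25*, the closest relative of *USP28*, had 9.76, 9.59 and 9.69 in the large pools, against 9.58, 7.60 and 9.39 in the small pools. Small pool 6 alone was far below the other 5 pools, and the difference was 0.82 (limma unadjusted p = 0.16) with groups that did not overlap. In the same pool *USP30*, an enzyme of the outer mitochondrial membrane, had 7.36, against 9.25 and 8.45 in the other small pools, and the splicing factor *USP39* had 6.52, against 8.03 and 7.70. *OTUD4* had 6.42, 7.47 and 6.48 in the large pools, against 8.91, 6.21 and 5.46 in the small pools, so that the groups overlapped widely (difference -0.07, 95% confidence interval -2.24 to 2.10).

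**Figure D5:**
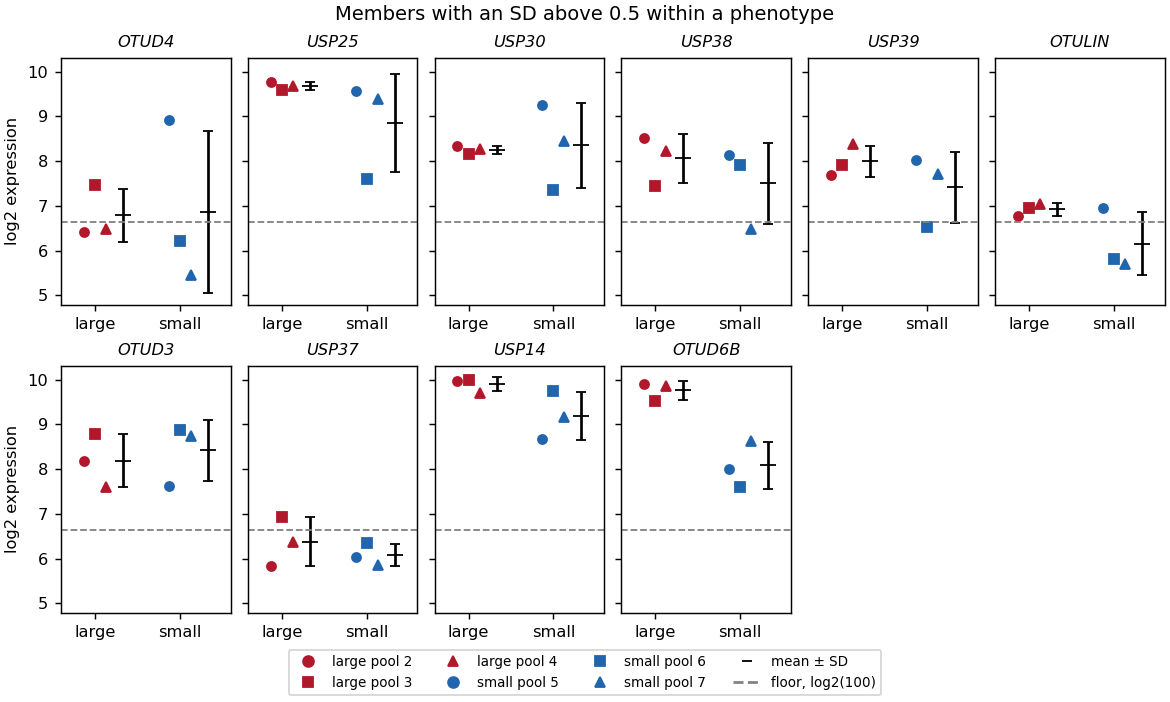
Log2 expression (vertical axis) in each pool of 20 large or 20 small MUG-Chor1 cells for the 10 enzymes with an SD above 0.5 within a phenotype, ordered by that SD. Points are pools, horizontal marks and bars are means and SDs of 3 pools, with the floor of log2(100) dashed. Small pool 6 lies below the other small pools for *USP25*, *USP30* and *USP39*.

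The remaining genes round these enzymes were taken from lists of other deubiquitinases, ubiquitin and E1 enzymes, and partners of USP and OTU enzymes, which were written with results of these arrays known. Of the 63 listed genes 53 were measured, of which 8 (15.1%, against 4.33% of all genes) were higher at an unadjusted p under 0.05 from limma and 0 were lower (10.5% of all genes), and 0 passed the adjustment. Without large pool 4 or without small pool 6, 2 were lower, and without small pool 7, 1 was. Over all 18404 genes 1530, 1228 and 1487 were lower in these fits. The median difference of the 53 was 0.04. The lists of other deubiquitinases, which include OTU-related genes outside the rule, had 21 measured genes. Of these 4 were among the 8, *UCHL3*, *MINDY3*, *UCHL5* and *JOSD1*. *MINDY3*, of a family that prefers long chains, had 8.40, 8.59 and 8.33 in the large pools, against 7.27, 7.14 and 6.44 in the small pools, a difference of 1.49 (standard error 0.23, 95% confidence interval 0.92 to 2.06, limma adjusted p = 0.32). *JOSD1*, of the Josephin family, had 7.85, 6.93 and 6.37 in the large pools, against 5.73, 5.74 and 5.71 in the small pools, a difference of 1.32 from signal below the floor in all small pools.

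*UBA6*, 1 of the E1 enzymes that activate ubiquitin, had 8.83, 8.24 and 8.48 in the large pools, against 8.08, 7.26 and 8.13 in the small pools, a difference of 0.70 (limma unadjusted p = 0.045), and *UBA1*, the main E1 enzyme, differed by -0.16. The ubiquitin gene *UBB* differed by 0.04. Of 28 partners 14 were higher. *RNF11*, which works with *TNFAIP3* in the A20 complex, had 8.21, 8.13 and 8.02 in the large pools, against 7.92, 7.31 and 7.36 in the small pools, a difference of 0.59 (limma unadjusted p = 0.017). The other parts of that complex, *TAX1BP1* and *ITCH*, differed by 0.22 and 0.54, with unadjusted p of 0.128 and 0.125 from limma.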

How the data were processed

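Pools of 20 MUG-Chor1 cells were picked by micromanipulation, their cDNA was amplified with the WT-Ovation One-Direct system and hybridized to Affymetrix Human Gene 1.0 ST arrays. The deposited values are log2 signals, 1 for each probe set, which the authors made by robust multi-array averaging. Their methods name R for this step and the submitters' processing notes Affymetrix Expression Console. No source used here names the chip definition file. The methods describe pools in quadruplicate, of which 3 per phenotype were analysed here.

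Gene names came from the platform annotation. Of 32321 probe sets, those with 1 gene symbol were kept, 1 per gene (highest mean), without a filter on low values. Large and small pools were compared with limma 3.58.1 in R 4.3.3 (two-sided, Benjamini-Hochberg over 18404 genes), which was tested on simulated data. The study removed genes without expression or change, without stated limits, so such filters were run as alternatives, as were other scalings, variance models, probe set choices and leaving out each pool. The number of arrays limits the precision.

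The members and lists were chosen with earlier results of these data known. Named were the 10 higher and 10 lower members with the smallest p, the 2 with the smallest p in each role group, and list genes at an unadjusted p under 0.05, of which 1 is not reported here. Relatives, partners and members with a wide spread were added after their values were seen. Endothelial markers averaged 6.18 to 6.35 in large and 6.34 to 6.43 in small pools. Promoters came from RefSeq.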

Additional observations from a re-analysis of the deposited data

How the results depend on the processing

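No member passed an adjusted p under 0.05 in limma in any alternative, and 12 had an unadjusted p under 0.05. Of the differences of the 24 members named by rule 361 kept their direction over the alternatives and 2 turned, *USP13* which ran from -0.025 without large pool 4 to 0.449 without large pool 3, and *USP33*, which ran from -0.256 without large pool 2 to 0.011 without small pool 7. With only genes above the expression floor, 44 members were left. Of these 20 were lower, 3 of them at an unadjusted p under 0.05 and 6 without overlap, and the median difference was 0.039. Of all 11694 genes left by this filter 7238 were lower, 1096 of them at an unadjusted p under 0.05, with a median of -0.098. With the floor and an interquartile range above 0.5, 12 members were left, 10 higher and 2 lower, with 3 higher at an unadjusted p under 0.05 but 0 lower, 5 above and 0 below without overlap, a median of 0.67, and 3 higher genes of the related lists. Of all 4675 probe sets left by this filter 60.5% were higher, 301 higher against 78 lower by unadjusted p, with a median of 0.20. The interquartile range was taken over the same 6 arrays, so this filter favors genes that differ between them. *CYLD* and *USP28* passed the floor in both filters through large pools alone. The filtered counts are therefore description only. Centring each array gave 14 members above and 5 below without overlap, 12 higher against 2 lower by unadjusted p, and a median of 0.026. Quantile normalization once more gave 7 below without overlap and 2 lower. Removing the trend with signal level gave 4 below without overlap, 1 lower, and a median of 0.078. Over all genes the share higher in large cells was 33.6% as deposited, 45.6% after centring, 37.7% after quantile normalization and 49.8% without the trend. The share of all genes without overlap was not counted for these filters and scalings, so their counts without overlap cannot be read as a result about the members. With an intensity trend in the prior variance 1 gene of the related lists was lower by unadjusted p, where 2029 of all 18404 genes were. For these moves the cause was not tested beyond what each setting changes.

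Leaving out 1 pool gave 10 to 16 members above without overlap (16 without large pool 3, 13 without small pool 5) and 14 to 16 below, 5 to 8 higher against 2 to 6 lower by unadjusted p, 30 to 36 higher and 30 to 36 lower in all, a median of -0.036 to 0.012, and 6 to 9 higher and 0 to 2 lower genes of the related lists. Over all 18404 genes these fits gave 684 to 864 higher against 1021 to 1591 lower by unadjusted p from limma. The share of all genes without overlap was not counted in them. Fewer pools separate more easily, so the counts without overlap cannot be read as a result about the members. No paired analysis was possible because the pool numbers are not shared between the groups. Of the other members 14 changed direction with the scaling, all between -0.14 and 0.06 as deposited. Differences of genes near the expression floor are limited by background signal.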

Other observations

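The 3 genes taken in by symbol that belong to neither family, *USP6NL*, *USP32P1* and *USP27X-DT*, were all lower in large cells, none at an unadjusted p under 0.05 in limma. *USP6NL* had 6.26, 6.03 and 6.19 in the large pools, against 7.36, 6.11 and 6.39 in the small pools, and its highest value was that of small pool 5. A probe set annotated to both *USP18* and *USP41P* had 7.80, 7.25 and 7.41 in the large pools, against 7.94, 7.44 and 7.60 in the small pools, a difference of -0.17 (limma unadjusted p = 0.43) with overlapping groups.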
